A study of Arabidopsis thaliana with 18 samples.

Results

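BRIP2 sites at the starts of long non-coding RNA (lncRNA) genes were examined in *Arabidopsis thaliana* seedlings that lack a working BRAHMA (BRM). They were chosen by position alone. A BRIP2 site was a ChIP-seq peak of replicate 1 on the 5 nuclear chromosomes that overlapped a peak of replicate 2 by at least 1 bp, and it was kept when its summit lay within 500 bp of the transcription start site (TSS) of an lncRNA gene. Of 5483 such BRIP2 sites, 337 were kept (6.15%, 95% Wilson interval 5.54 to 6.81%). A protein-coding TSS also lay within 500 bp of the summit at 85 of them, and at 252 it did not. The remaining 5146 BRIP2 sites served for comparison and are called other sites.

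The series profiled BRM and the BRM-interacting proteins BRIP1 and BRIP2 by chromatin immunoprecipitation and sequencing of GFP fusions. The 4 libraries used were BRIP1-GFP and BRIP2-GFP, each in *brm-1* and each with 2 libraries titled as biological replicates, from 14-day-old seedlings. Both groups thus carried the *brm-1* mutation. Libraries of these fusions in plants with BRM were not analysed here, so the values say nothing of the effect of losing BRM. The promoter that drives each fusion, the number of lines and the state of the endogenous *BRIP1* and *BRIP2* genes in *brm-1* are not given in the sources used here. The antibody field of BRIP1-GFP replicate 2 reads none, against its title, and that of the BRIP2-GFP input in *brm-1* names the GFP antibody. The titles were followed, and the control behind each list is not stated. No library of plants without a GFP fusion is among the sample titles, so places that attract any antibody could not be set apart.

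SWI/SNF complexes use the energy of ATP to slide or remove nucleosomes. BRM is one of the plant ATPases that drive them, and the BRIP proteins, which resemble each other in sequence, are subunits of the class that contains BRM. lncRNAs are transcripts that do not code for proteins. Many lie between genes, some run antisense across a gene, some start back to back with a gene from one shared promoter, and most have no known function.

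The values are fold enrichments, that is, the pile of fragments at a peak summit relative to the control level used there, taken from the deposited lists. At most of the 337 sites that level was one background value for the whole library, as given below. The 4 lists held 3637 and 5343 nuclear peaks for BRIP1 replicates 1 and 2, and 7877 and 6288 for BRIP2. Median summit pileups, recovered from the listed fold and p-value, were 84, 103, 79 and 64 fragments in that order. At the 337 sites the recovered control stood at the library's background level at 77.2% in BRIP2 replicate 1 and 82.8% in replicate 2, and at none was it over 2 times that level in either library.

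The sequences under the highest summits show what these places look like. Shown are the summit and 50 bases on either side of it for 7 of the 8 lncRNA sites with the best mean BRIP2 fold, and for the best site that shares its place with a coding start. The second-best site, at AT2G45685, was left out because its summit falls in the 3′ UTR of *TCP9*, and the site at AT1G05197 was added after its values were seen. Each is given 5′ to 3′ on the strand of the lncRNA, in TAIR10.1 coordinates and from the RefSeq assembly. Capitals mark matches on either strand to the words searched, which are listed further on, and neighbouring matches may merge.
AT1G04453, chr1:1953868-1953968, minus strand: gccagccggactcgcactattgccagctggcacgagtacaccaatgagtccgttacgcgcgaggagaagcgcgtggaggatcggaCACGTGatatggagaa
AT1G05863, chr1:8598636-8598736, plus strand: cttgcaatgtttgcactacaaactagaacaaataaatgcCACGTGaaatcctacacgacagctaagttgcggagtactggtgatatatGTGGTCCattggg
AT1G04407, chr1:1713500-1713600, minus strand: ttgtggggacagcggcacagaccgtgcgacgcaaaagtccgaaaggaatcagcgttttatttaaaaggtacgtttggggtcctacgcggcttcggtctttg
AT4G08205, chr4:14545863-14545963, plus strand: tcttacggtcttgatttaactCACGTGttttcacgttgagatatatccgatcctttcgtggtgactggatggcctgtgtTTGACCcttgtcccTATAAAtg
AT3G04325, chr3:8104479-8104579, minus strand: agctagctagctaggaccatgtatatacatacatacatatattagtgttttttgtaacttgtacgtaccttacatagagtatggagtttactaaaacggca
AT1G04753, chr1:3247965-3248065, minus strand: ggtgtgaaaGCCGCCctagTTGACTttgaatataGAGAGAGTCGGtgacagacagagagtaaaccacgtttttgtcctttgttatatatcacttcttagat
AT2G09320, chr2:17504797-17504897, minus strand: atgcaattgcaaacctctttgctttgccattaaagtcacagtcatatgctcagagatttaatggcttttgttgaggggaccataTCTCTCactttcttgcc
AT1G05197, chr1:5421437-5421537, plus strand: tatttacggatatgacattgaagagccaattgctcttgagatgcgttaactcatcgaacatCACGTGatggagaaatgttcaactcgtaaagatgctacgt
A G-box, the palindrome CACGTG read by bZIP and bHLH factors, was present in 4 of these 8 sequences, at AT1G04453, AT1G05863, AT4G08205 and AT1G05197. The left-out sequence at AT2G45685 held no G-box, while the added one at AT1G05197 did. In a wider window of 201 bp, a G-box stood at 20.5% of all 337 lncRNA sites and 18.1% of other sites. The 8 sequences are therefore no measure of how common the word is. The sequences at AT1G04407 and AT3G04325 held no match besides the ACGT core of the G-box, which is not capitalised.

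BRIP2 sites were more common at lncRNA starts than the length of these stretches alone would give. The stretches within 500 bp of an lncRNA TSS covered 2.75% of the nuclear genome and held 6.15% of the sites, a ratio of 2.23. Where no coding TSS lay near, they covered 2.14% of the genome and held 4.60% of the sites (4.07 to 5.18%), so the excess was not carried by shared starts alone. Within 500 bp of a coding TSS were 21.4% of the genome and 41.8% of the sites, a ratio of 1.95. Of all nuclear peaks, 6.68% of BRIP1 replicate 1, 6.34% of BRIP1 replicate 2, 5.88% of BRIP2 replicate 1 and 5.74% of BRIP2 replicate 2 lay at lncRNA starts, so each library showed it.

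Counted by gene, 373 of 3480 lncRNA genes had a site within 500 bp of the TSS (10.7%, 9.73 to 11.8%). For protein-coding genes this was 2519 of 27444 (9.18%, 8.84 to 9.53%). Among lncRNAs that overlap no coding gene it was 281 of 2059 (13.6%, 12.2 to 15.2%), and among antisense lncRNAs 90 of 1360 (6.62%, 5.41 to 8.06%). The lncRNA genes with a site were about as long as the rest, at a median of 345 bp against 342 bp. Shares ran from 9.30% on chromosome 3 to 13.0% on chromosome 5. Each of the 337 sites had a different nearest lncRNA, and 35 sites lay near the TSSs of 2 or more lncRNAs.

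Summits lay more often downstream of the lncRNA TSS than upstream of it. Downstream was not always inside the lncRNA, since many are shorter than the window. By annotation 176 of 337 summits (52.2%) fell in a non-coding exon and 107 in intergenic sequence. The median summit was 84 bp downstream of the lncRNA TSS, 225 of 337 summits (66.8%, 61.6 to 71.6%) were downstream, and 142 fell in the first 200 bp. At other sites with a coding TSS the median summit was 68 bp upstream of that TSS, and 34.3% (32.3 to 36.3%) were downstream, so the 2 intervals do not overlap. At the 85 sites with both kinds of start, the median summit was 77 bp downstream of the lncRNA TSS and 71 bp upstream of the coding TSS. The coding value pools unlike groups. It was 214 bp upstream at the 43 divergent pairs and 18 bp downstream at the 35 pairs that overlap on opposite strands. On opposite strands the 2 distances are tied by the layout of the genes, so they are not separate patterns. The lncRNA TSS was the nearer one at 39 of the 85 sites and the coding TSS at 46.

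**Figure D1:**
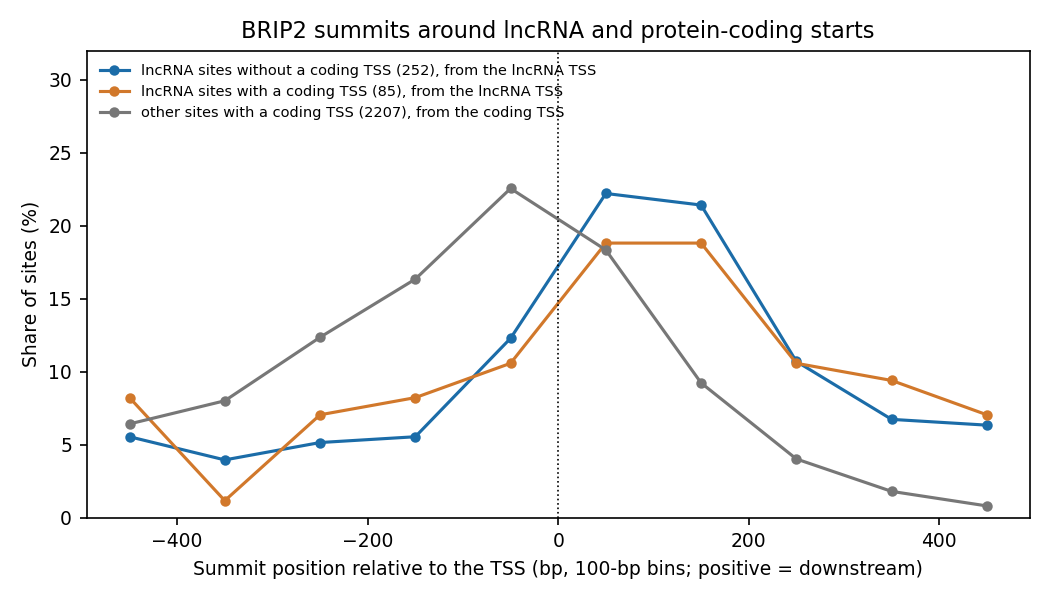
Share of sites (%) by the position of the BRIP2 replicate 1 summit relative to a TSS in 100-bp bins, with positive values downstream, for lncRNA sites without (252) and with (85) a coding TSS within 500 bp, measured from the lncRNA TSS, and for 2207 other sites, measured from the coding TSS. The 2 lncRNA curves are highest in the first 200 bp downstream of the lncRNA TSS, and the curve of coding starts is highest in the 100 bp upstream.

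Summit positions were repeatable to this scale. The BRIP2 replicate 2 summit lay within 100 bp of the replicate 1 summit at 269 of 337 sites, with a median shift of 45 bp. Where both BRIP1 libraries had a peak, their summits lay a median of 43 and 42 bp from that of BRIP2 replicate 1. The window edge was not sharp in the values. The sites just inside it, at AT4G09515 (497 bp), AT3G05055 (498 bp) and AT5G08975 (500 bp), had BRIP2 folds in replicate 1 of 4.38, 2.28 and 3.68. Those just outside, at AT4G05775 (501 bp), AT3G03125 (513 bp) and AT1G09393 (514 bp), had 3.09, 3.49 and 2.76.

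BRIP2 enrichment was higher at lncRNA starts without a coding TSS within 500 bp than at those with one. Over all 337 sites the fold ran from 1.73 to 7.56 in replicate 1, with a median of 3.10, and from 1.77 to 7.22 in replicate 2, with a median of 2.97. Without a coding TSS the medians were 3.22 and 3.09, with one they were 2.70 and 2.64, and the difference of medians was 0.52 and 0.45 (mean 0.49) in the 2 replicates. At other sites the same difference was 0.20 and 0.17. Sites with a coding TSS had the same medians whether an lncRNA start lay there or not, since the other sites stood at 2.70 and 2.64 as well. Without a coding TSS, lncRNA sites stood above other sites (2.90 and 2.81) by 0.32 and 0.29. The interquartile ranges overlapped, at 2.67 to 4.08 without and 2.38 to 3.26 with a coding TSS in replicate 1. With 2 libraries no test over samples was made, and sites are not replicates. The difference of medians, averaged over both replicates and taken as with minus without a coding TSS, shrank to -0.23 with −log10 q of 10 or more and to -0.060 with fold 3 or more in every library.

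The order of the sites was much alike in the 2 BRIP2 libraries. Spearman's rho was 0.88 over the 337 sites, and it was 0.88 between the BRIP1 libraries and 0.83 between the means of the 2 proteins over the 222 sites with a peak in all 4 libraries. These are descriptions across sites, which share libraries and controls.

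**Figure D2:**
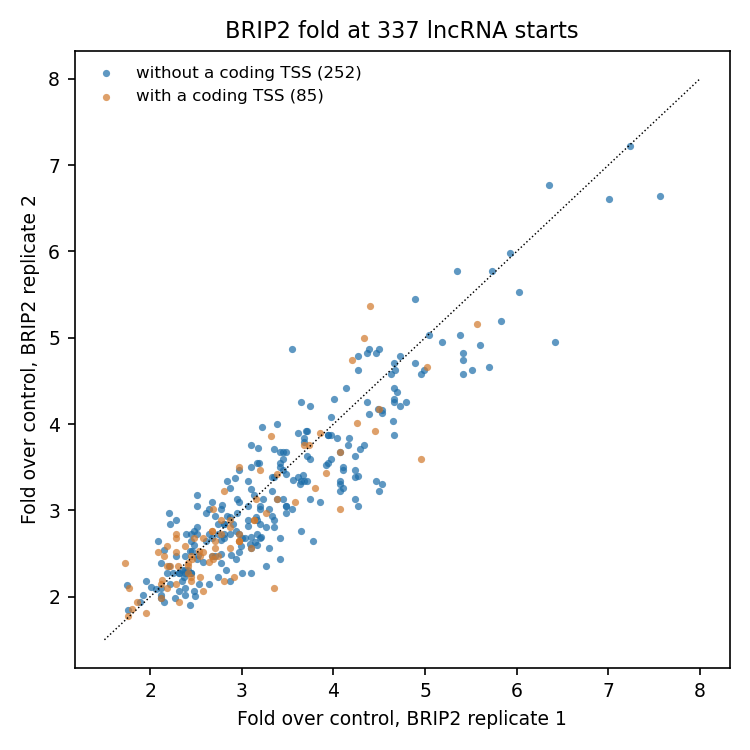
Fold over control of the 337 lncRNA sites in BRIP2 replicate 1 (x axis) and replicate 2 (y axis), 1 point a site, coloured by whether a coding TSS lay within 500 bp, with the dotted line at equal values. Most sites with a fold over 5 in both replicates are sites without a coding TSS, and both classes fill the range below.

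BRIP1 was found at most of these BRIP2 sites, and more often where no coding TSS lay near. Both BRIP1 libraries had a peak at 222 of 337 sites (65.9%, 60.7 to 70.7%), against 55% of all 5483 BRIP2 sites. Without a coding TSS it was 183 of 252 (72.6%, 66.8 to 77.8%), and with one it was 39 of 85 (45.9%, 35.7 to 56.4%). The difference was 26.7 percentage points, with a Newcombe interval of 14.7 to 38.1 for counting error only. It was 26.8 points for BRIP1 replicate 1 alone and 23.0 points for replicate 2 alone, so both libraries showed it, also without the one whose antibody entry reads none. Other sites differed the same way by 13.1 points (10.3 to 15.8), from 46.8% with to 59.9% without a coding TSS.

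The lncRNA sites were also set against other sites of the same class. Without a coding TSS, BRIP1 overlap in both libraries was 12.7 points higher at lncRNA sites (6.66 to 18.2). With a coding TSS the gap was -0.92 points (-11.3 to 9.82), an interval that covers differences either way, and whether the 2 gaps differ was not tested. The gap away from coding starts was of like size in bins of distance from the nearest coding TSS. At 500 to 1000 bp, 41 of 59 lncRNA sites (69.5%) and 57.3% of other sites had both BRIP1 peaks, at 1000 to 2000 bp 68 of 97 (70.1%) and 56.6%, and beyond 2000 bp 74 of 96 (77.1%) and 64.9%. Median BRIP2 fold in replicate 1 was also higher at the lncRNA sites in these bins, at 3.18, 3.19 and 3.36 against 2.90, 2.85 and 2.93.

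**Figure D3:**
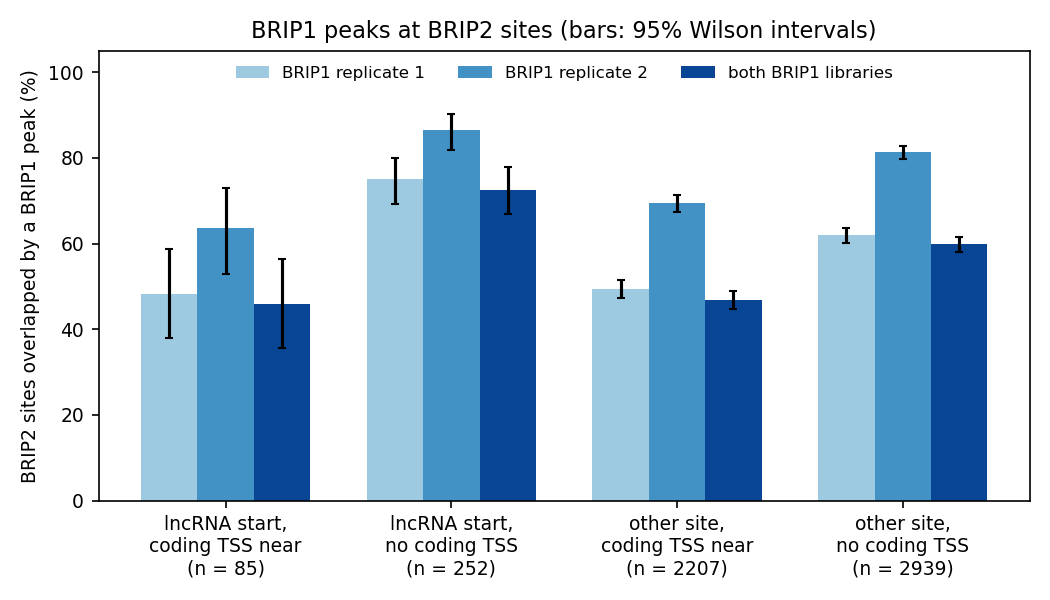
Share of BRIP2 sites (%) overlapped by a peak of BRIP1 replicate 1, of replicate 2 and of both, for lncRNA starts and other sites with and without a coding TSS within 500 bp. Error bars are 95% Wilson intervals of the counts, and the dark bars stand at 45.9, 72.6, 46.8 and 59.9% from left to right.

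BRIP1 overlap moved with BRIP2 fold. All 5483 sites were split by mean BRIP2 fold into 3 groups of about equal size, low, middle and high, a step chosen after the values were known. In the high group, 124 of 129 lncRNA sites without (96.1%) and 20 of 23 with a coding TSS (87.0%) had both BRIP1 peaks. In the middle group it was 49 of 77 (63.6%) and 17 of 29 (58.6%), and in the low group 10 of 46 (21.7%) and 2 of 33 (6.06%). Within each group the interval of the difference included 0. With peaks of fold 3 or more in every library, BRIP1 overlap with minus without a coding TSS was -6.87 points (-28.3 to 13.6), and with the 4 lists kept to equal length it was -10.3 points (-25.6 to 1.52), so both intervals included 0 as well. Against other sites without a coding TSS, the lncRNA sites stood at 96.1 against 92.2%, 63.6 against 58.4% and 21.7 against 21.9% from the high to the low group.

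**Figure D4:**
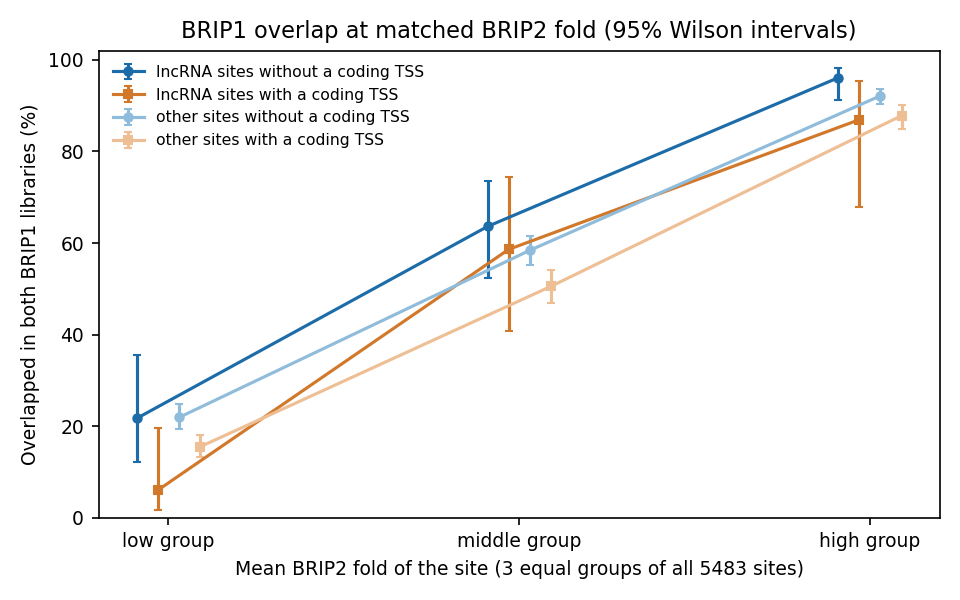
Share of sites with a peak in both BRIP1 libraries (%) within 3 groups of about equal size by mean BRIP2 fold over all 5483 sites, for the 4 classes, with 95% Wilson intervals. All 4 classes climb together, from 6.06 to 21.9% in the low group to 87.0 to 96.1% in the high group, and the 2 lncRNA classes have overlapping intervals in each group.

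The way an lncRNA lies to its coding neighbour went with both readouts. Of the 337 lncRNAs nearest to a site, 246 overlapped no coding gene, 89 were antisense to one and 2 overlapped one on the same strand. The non-overlapping lncRNAs had median BRIP2 folds of 3.24 and 3.11, and 181 of 246 (73.6%) had both BRIP1 peaks. The antisense lncRNAs had 2.74 and 2.72, and 39 of 89 (43.8%) had both. The split was also seen within the sites without a coding TSS, with 164 of 213 (77.0%) for non-overlapping and 18 of 38 (47.4%) for antisense lncRNAs. Of the 89 antisense lncRNAs, 39 (43.8%) started within 500 bp of the 3′ end of their partner, near the 41.9% of all 1360 antisense lncRNAs.

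Among the 85 sites with a coding TSS, the lncRNA and the nearest coding gene ran away from each other at 43 and overlapped on opposite strands at 35. Of the 43 divergent pairs 24 had both BRIP1 peaks, and of the 35 overlapping pairs 12. Among the 252 without one, 112 lncRNAs were divergent from the nearest coding gene, 63 lay upstream of it on the same strand, 28 converged on it and 24 overlapped it on the opposite strand. The summit was upstream of the nearest coding TSS at 177 of these 252 (70.2%, against 66.4% of other sites without a coding TSS). It lay 500 to 2000 bp upstream at 124, and at 96 (38.1%) the nearest coding TSS was over 2000 bp away. By position alone, a site of the lncRNA and a site in the distal promoter of the coding gene cannot be told apart.

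The strongest lncRNA sites without a coding TSS near had BRIP2 folds of 4.95 to 7.56 and BRIP1 peaks in both libraries. They were picked by their rank in BRIP2 fold, which by itself favours BRIP2 in the comparisons with BRIP1 below. The first was AT1G04453, divergent from *TPS7*, a gene of the trehalose phosphate synthase family, with the summit 274 bp inside the lncRNA and 756 bp upstream of *TPS7*. Its BRIP2 fold was 7.23 and 7.22, and its BRIP1 fold 5.76 and 5.79. The 2 BRIP2 pileups were 221 fragments (95% Poisson interval 193 to 252) and 174 (149 to 202). For BRIP1 the pileups were 186 (160 to 215) and 243 (213 to 276) fragments. Both BRIP2 folds thus lay above both BRIP1 folds, while the pileups did not follow this order and BRIP1 replicate 2 had the largest.

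AT2G45685 is antisense to *TCP9*, a class I TCP transcription factor gene, and its TSS lies at the 3′ end of that gene. Its BRIP2 fold was 7.56 and 6.64 and its BRIP1 fold 6.37 and 6.66, so the 2 proteins overlapped in range. AT1G05863, with its summit 1705 bp upstream of AT1G24265 on the same strand, had 7.01 and 6.60 for BRIP2 and 6.0 and 6.45 for BRIP1. AT1G04407, divergent from AT1G05710, had 6.35 and 6.77 for BRIP2 and 5.39 and 5.57 for BRIP1. At these last 2 sites the lower BRIP2 value was above the higher BRIP1 value.

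The summit at AT4G08205 lay 2 bp from the lncRNA TSS and 603 bp upstream of AT4G29700, with folds of 5.93 and 5.98 for BRIP2 and 4.81 and 4.88 for BRIP1. AT3G04325 had its summit 3597 bp upstream of *DMC1*, which encodes a recombinase of meiosis. Its folds were 6.03 and 5.53 for BRIP2 and 5.05 and 4.70 for BRIP1. AT1G04753 converges on *SUT4*, a sucrose transporter gene, and had 5.73 and 5.78 for BRIP2 and 4.0 and 4.51 for BRIP1. At all 3 BRIP2 stood above BRIP1 in every pairing of libraries.

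AT2G09320 is divergent from *ZFP8*, a C2H2 zinc finger gene whose TSS lay 2496 bp from the summit. It was the least repeatable of the 10, with 6.42 and 4.95 for BRIP2 and 6.31 and 6.28 for BRIP1. AT3G03615, upstream of the beta-glucosidase gene *BGLU44*, had 5.34 and 5.78 for BRIP2 and 4.42 and 4.56 for BRIP1. AT1G08673, with its summit 3649 bp upstream of AT1G64380, had 5.83 and 5.20 for BRIP2 and 5.23 and 4.6 for BRIP1. In all 10 the summit fell inside the lncRNA or within 2 bp of it, and at AT2G45685 the 3′ UTR of *TCP9* covered it as well.

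**Figure D5:**
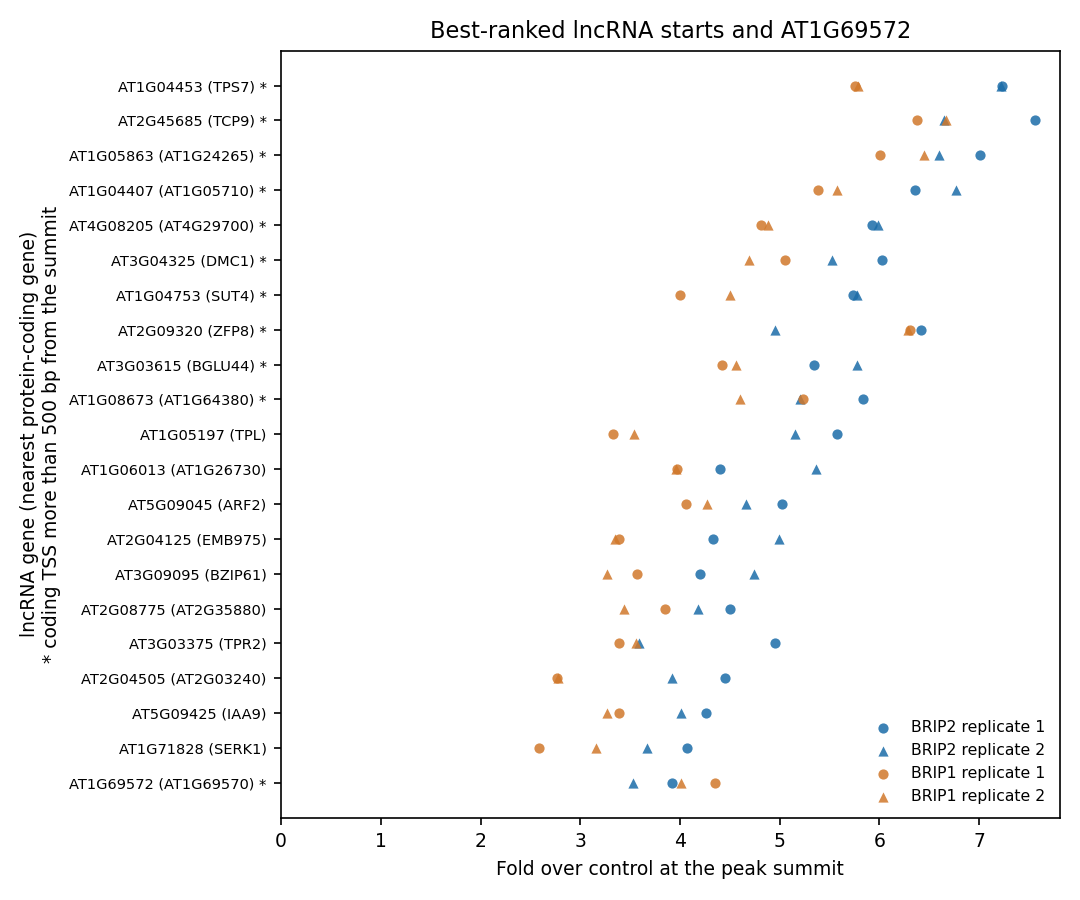
Fold over control at the summit (x axis) of the 10 best lncRNA sites with and the 10 best without a coding TSS within 500 bp, and of AT1G69572, in the 4 libraries, with the nearest protein-coding gene in parentheses. The 10 best of 252 sites without a coding TSS take the upper rows with BRIP2 folds of 4.95 to 7.56, above the 10 best of 85 with one. Stars mark sites without a coding TSS, AT1G69572 included. BRIP1 (orange) is mostly to the left of BRIP2 (blue), which the ranking on BRIP2 fold favours.

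The strongest shared starts had lower folds, with BRIP2 values from 3.59 to 5.57. The best was AT1G05197, divergent from *TPL*, the gene of the co-repressor TOPLESS, with the summit 454 bp upstream of the coding TSS. Its BRIP2 fold was 5.57 and 5.16, and its BRIP1 fold 3.32 and 3.53. AT3G03375 is divergent from *TPR2*, a gene of the same co-repressor family, and had 4.95 and 3.59 for BRIP2 and 3.39 and 3.56 for BRIP1. At both, each BRIP2 value was above each BRIP1 value, by little at *TPR2*, where the BRIP2 replicates lay far apart.

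AT5G09045 is at *ARF2*, an auxin response factor gene, inside a peak of 6082 bp, and had 5.02 and 4.66 for BRIP2 and 4.06 and 4.27 for BRIP1. AT5G09425 is antisense to *IAA9*, an Aux/IAA repressor gene of auxin response, and had 4.26 and 4.01 for BRIP2 and 3.39 and 3.27 for BRIP1. At both, the BRIP2 values were above the BRIP1 values. AT3G09095 is antisense to *BZIP61*, a bZIP factor gene, with its summit 21 bp inside the lncRNA and 39 bp inside the coding gene, and had 4.20 and 4.75 for BRIP2. AT1G71828 is antisense to *SERK1*, a receptor kinase gene, and had 4.07 and 3.67 for BRIP2 and 2.59 and 3.15 for BRIP1. AT2G08775 is antisense to the calcium-dependent kinase gene *CPK25* and divergent from AT2G35880, and had 4.50 and 4.18 for BRIP2. The other 3 of the 10, AT1G06013 at AT1G26730, AT2G04125 antisense to *EMB975* and AT2G04505 at AT2G03240, had BRIP2 folds from 3.92 to 5.36. All 10 had peaks in both BRIP1 libraries.

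No BRIP1 peak in either library was found at 57 of the 337 sites (16.9%, 13.3 to 21.3%), against 21.3% of all BRIP2 sites. They were 29 of 85 with a coding TSS (34.1%) and 28 of 252 without (11.1%). The best-ranked had mean BRIP2 folds near the median of 3.03 over all 337 sites. AT4G07285, antisense to AT4G24805, had 3.32 and 2.93 and AT2G09315 had 3.36 and 2.89. AT5G01542, antisense to the lectin receptor kinase gene *LECRKA4.1*, had 3.16 and 2.72. AT5G06865 lies antisense to *PGIP1* and beside *PGIP2*, genes of polygalacturonase inhibitors, and had 2.97 and 2.72. Each of the 4 named in either class lay at ranks from 153 to 250 of 337 by mean BRIP2 fold. A missing BRIP1 peak means no call at the depth of those libraries, not that BRIP1 was shown to be absent.

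A coding partner, either antisense to the lncRNA or with its TSS within 500 bp of the summit, was found at 123 sites. Partners were looked up in 17 families by the form of the gene symbol, which misses members with other names, such as the NAC factor gene *ATAF1* at AT1G04043 and the auxin carrier gene *LAX1* at AT5G00745. By this rule each family had at most 2 partners, counts too small to compare. WRKY and auxin genes had 2 each (1.63%, against 0.63% and 0.59% of other sites with a coding TSS). At lncRNA sites a partner could also be an antisense gene with its TSS further off. At other sites only a TSS within 500 bp counted, so the shares are not like for like. AT4G07250 is divergent from *WRKY7*, a WRKY factor gene, and had folds of 3.85 and 3.89 for BRIP2 and 3.54 and 3.56 for BRIP1. AT5G09695 is divergent from *IDD1*, a zinc finger factor gene, and had 3.80 and 3.26 for BRIP2 and 3.69 and 3.89 for BRIP1. AT3G24518 is antisense to *HSFC1*, a heat shock factor gene, and had 4.07 and 3.67 for BRIP2 and 3.85 and 4.13 for BRIP1. The 2 proteins overlapped in range at *IDD1* and *HSFC1*. AT3G01035, antisense to the homeodomain gene *HB-1*, had 3.13 and 2.89 for BRIP2, and AT5G06535, divergent from *BHLH92*, had 2.18 and 2.1 with no BRIP1 peak.

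Some better-known neighbours lay too far from the summit to count as partners, and they were picked after their values were seen. AT1G05473, with its summit 663 bp upstream of *JAZ1*, a repressor gene of jasmonate signalling, had a mean BRIP2 fold of 4.80. AT1G09307, upstream of *JAZ6* of the same family, had 4.80. AT1G09577, divergent from the receptor kinase gene *CLV1*, had 5.17 for BRIP2 and 5.78 for BRIP1. AT1G07843, with its summit 908 bp upstream of the NAC factor gene *NAC019*, had 5.08 for BRIP2 and 3.94 for BRIP1.

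At the 222 sites with a peak in all 4 libraries, BRIP1 had median folds of 2.98 and 3.14 and BRIP2 of 3.52 and 3.38. The 2 proteins did not overlap in these medians. The difference on the log2 scale was 0.17, and the exact two-sided permutation test over the 4 libraries gave p = 0.33, the smallest it can give. The mean BRIP2 fold was the higher one at 182 of the 222 sites (82.0%). The sites were chosen on BRIP2 peaks, and the libraries differ in depth and in background, so the part of these in the difference was not tested.

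The 201 bp around each summit were searched on both strands for 14 words. They were the G-box CACGTG and its core ACGT, the TATA word TATAAA, the repeat GAGAGA, the telo-box AAACCCTA, the TCP site GGNCCCAC and the site II word TGGGCC. Further words were the W-boxes TTGACC and TTGACT, the GCC-box GCCGCC, the dehydration response core CCGAC, the evening element AAAATATCT, the homeodomain word AATNATT and the auxin response element TGTCTC. The core lies inside the G-box, and the TCP and site II words can share letters. GAGAGA, a repeat bound by GAGA factors such as the BPC proteins, was found at 31.5% of lncRNA sites (26.7 to 36.6%) and 24.4% of other sites. Without a coding TSS the shares were 30.2% and 20.9%. The G-box stood at 20.5% (16.5 to 25.1%) and 18.1%, and the auxin response element TGTCTC at 19.6% (15.7 to 24.2%) and 15.4%. For TGTCTC the order turned with the class, at 22.2% and 15.8% without a coding TSS and 11.8% and 14.8% with one. The TATA word was found at 25.8% and 28.6%, and the W-box TTGACT, the word of WRKY factors, at 17.8% and 21.8%. AAAATATCT, the evening element of the circadian clock, was at 0 of 337 sites and at 1.73% of other sites. A count of 0 allows a share of up to 0.89% by the limit of 3 counts, and up to 1.13% by the Wilson interval. The remaining words were at 56.4% and 54.7% (ACGT core), 17.8% and 15.8% (CCGAC), 19.3% and 21.1% (the homeodomain word), 14.5% and 14.7% (TTGACC), 8.90% and 8.34% (site II), 2.97% and 3.32% (GCC-box) and 1.78% and 1.44% (telo-box) of lncRNA and other sites.

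A further word, GTGGNCC, was added after summit sequences of these sites had been read. Among the 8 printed sequences it is only in that at AT1G05863, and it is also in the left-out sequence at AT2G45685. It resembles the sites of TCP factors and was found at 67 of 337 lncRNA sites (19.9%) and 13.9% of other sites. Since it was read off sequences of these same sites, the gap is no independent support. The TCP site GGNCCCAC from the first list was at 4.75% (2.94 to 7.57%) and 3.94%. Mean GC content of the windows was 38.4 ± 5.98% (SD, n = 337) at lncRNA sites and 36.5 ± 5.40% (SD, n = 5146) at other sites, so the base composition differed along with the words, and its part in them was not tested. A match is only a run of letters and shows no bound factor.

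Of 16 lncRNAs listed for their known roles, 2 carry the biotype lncRNA in RefSeq. AT1G69572, annotated as a natural antisense transcript of AT1G69570, had a site 236 bp upstream of its TSS, with folds of 3.92 and 3.53 for BRIP2 and 4.35 and 4.01 for BRIP1. Here both BRIP1 values lay above both BRIP2 values, unlike at most sites. AT5G01675, annotated as the antisense transcript that overlaps *FLC*, a repressor gene of flowering, had its nearest BRIP2 site 10208 bp away.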

How the data were processed

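Peaks of 4 ChIP-seq libraries in *brm-1*, 2 of BRIP1-GFP and 2 of BRIP2-GFP, grouped by sample title, were analysed. The other 14 of 18 samples were not. According to the submitters' processing notes, TAIR10, Bowtie, deepTools and MACS2 2.1.1 were used, and the sources do not say which control library served. The authors called peaks library by library. Each deposited peak has a fold over control (a ratio), p- and q-values as −log10, and a score that was not used. Every nuclear peak lies inside the TAIR10.1 chromosomes.

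Gene starts were the 5′ ends of RefSeq TAIR10.1 genes (3480 lncRNA, 27444 protein-coding), and coordinates count from 1. Pileup and control were solved from fold and Poisson p, and 99.8 to 99.9% of pileups came out whole within 0.05. Wilson, Newcombe and Poisson intervals (95%) cover counting error only. BRIP2 and BRIP1 were compared by exact permutation over libraries. Scripts (Python 3.11.15, pandas 2.3.3, scipy 1.17.1) were tested on simulated lists. Named were the 10 best sites by mean BRIP2 fold in each class, listed lncRNAs, up to 4 per class without BRIP1 and the best of each partner family. Sites and lists were chosen with earlier results of these data known.

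Alternatives were windows of 250 and 1000 bp, −log10 q of 10 or more, fold of 3 or more, equal list lengths, 50% reciprocal overlap, positions from BRIP2 replicate 2, sites whose nearest TSS was the lncRNA's, each library left out and the replicate number as a block. Groups by fold, bins of distance and GTGGNCC were chosen with the values in view.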

Additional observations from a re-analysis of the deposited data

Results flagged for a closer look

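The peak lists held signal outside the comparisons. Plastid peaks, which were not analysed further, numbered 6 in BRIP1 replicate 1 and 7 in BRIP1 replicate 2, and 2 and 3 in the BRIP2 replicates. A further 126 peaks of BRIP2 replicate 1 had their summit within 500 bp of an lncRNA TSS but overlapped no peak of replicate 2, out of 2394 such peaks of replicate 1 in all.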

How the results depend on the processing

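Of 80 recomputed values, 43 stayed near the reported one, 37 moved and 0 changed direction. Near meant within the counting interval or replicate spread. For the number of sites it meant within 1.5 times, and for BRIP2 against BRIP1 the same sign. Counts and shares cannot change direction, so only the differences could. Leaving out 1 library could not reverse BRIP2 against BRIP1 either, since the medians of the 2 proteins did not overlap. The number of sites was 536 with an lncRNA window of 1000 bp, 208 with −log10 q of 10 or more, 149 with fold 3 or more and 220 with equal lists of 3637 peaks. The share of lncRNA genes with a site became 7.27% (window of 250 bp), 16.9% (1000 bp), 6.78% (q), 4.89% (fold), 7.16% (equal lists), 9.54% (50% reciprocal overlap) and 9.28% (lncRNA TSS nearest). The share of sites with a coding TSS became 31.9% (lncRNA window of 1000 bp), 17.5% and 42.7% (coding windows of 250 and 1000 bp), 17.3% (q), 14.8% (fold), 19.1% (equal lists) and 13.2% (lncRNA TSS nearest). Overlap with both BRIP1 libraries became 60.4% (lncRNA window of 1000 bp), 75% (q), 60.4% (fold), 84.5% (equal lists) and 59.2% (reciprocal overlap). BRIP1 overlap with minus without a coding TSS became -6.87 points (fold), -10.3 (equal lists), and -5.02 and -9.17 in the middle and high groups of fold. The median BRIP2 fold with minus without a coding TSS became -0.34 (coding window of 1000 bp), -0.23 (q), -0.060 (fold), -0.38 (equal lists) and -0.42 (positions from BRIP2 replicate 2). Filters on fold or q leave fewer and higher peaks by construction. A wider window can only add sites, lncRNA genes or coding starts, and a narrower one can only remove them. A stricter overlap can only remove sites and BRIP1 calls, and leaving out a BRIP2 library drops the demand for a peak in both replicates. The cause of the other shifts was not tested. Leaving out 1 library each gave 361 to 463 sites, 50.1 to 80.7% BRIP1 overlap (a single BRIP1 library where the other was left out), a fold difference of -0.41 to -0.37 and 11.6 to 14.7% of lncRNA genes with a site. With the replicate block, BRIP2 minus BRIP1 was 0.17 on the log2 scale with an exact p of 0.5, the smallest 2 pairs allow. Deviations of same-numbered libraries correlated at 0.08, which cannot tell whether these libraries shared a day or batch.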

Other observations

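Other non-coding genes had BRIP2 sites within 500 bp of their starts as well. The share was 50 of 625 tRNA genes (8.00%, 6.12 to 10.4%), 20 of 221 genes of the biotype ncRNA (9.05%, 5.93 to 13.6%), 13 of 326 microRNA genes (3.99%, 2.35 to 6.70%) and 4 of 3917 pseudogenes (0.10%). *TAS3*, the gene of trans-acting small RNAs that target auxin response factors, has the biotype ncRNA and so lay outside the rule, and it had a site 159 bp upstream of its start with a mean BRIP2 fold of 4.38.

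BRIP1 sites without BRIP2 were counted at lncRNA starts as well. Of 3419 BRIP1 sites found in both BRIP1 libraries, 234 lay within 500 bp of an lncRNA TSS, and 2 of these had no peak in either BRIP2 library. They were at AT1G05953, with BRIP1 folds of 2.83 and 2.82, and at AT3G08200, with 2.19 and 3.15. The share without BRIP2 over all 3419 BRIP1 sites was not counted, and the BRIP2 lists are the longer ones. The count therefore shows nothing particular to lncRNA starts.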
